A study of Mus musculus with 18 samples.

Results

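The genes described are the 8 neuronal nicotinic acetylcholine receptor subunits *Chrna3*, *Chrna4*, *Chrna5*, *Chrna6*, *Chrna7*, *Chrnb2*, *Chrnb3* and *Chrnb4*, taken as the probesets whose gene symbol in the platform annotation is one of these names. Each subunit had 1 probeset, so the members were 8 of the 34760 probesets on the array and 8 of the 21640 that carry 1 gene symbol. Nicotinic receptors are pentameric ion channels opened by acetylcholine or nicotine, and the subunits in a pentamer set its affinity and its calcium permeability. In the brain, *Chrna4* and *Chrnb2* form the widespread high-affinity receptor, and *Chrna7* forms a receptor by itself. *Chrna6* and *Chrnb3* are known for the dopamine neurons of the ventral midbrain, *Chrna3* and *Chrnb4* for the medial habenula and the autonomic ganglia, and *Chrna5* is an accessory subunit that joins either kind. The ventral midbrain borders the hypothalamus from behind and the medial habenula lies above it, across the thalamus.

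Hypothalamic RNA was measured on Affymetrix Mouse Gene 1.0 ST arrays in 18 male mice, 1 mouse per array, from the Schlager hypertensive strain BPH/2J and its normotensive control strain BPN/3J. Both inbred strains had 6 mice in the active period, at ‘peak’ BP and 26 weeks old, and 3 mice in the inactive period, at ‘trough’ BP and 18 weeks old by the sample labels or 19 by the series text. No mouse was treated, so the study compares inherited hypertension with its control at each time, and time of day and age cannot be told apart. The labels describe the whole hypothalamus, and the methods of the study describe its paraventricular and dorsomedial parts. The BPN/3J ‘trough’ mice carry BPH/2J in their strain label and BPN in their titles, and the titles were followed.

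Markers of the hypothalamus were present in all mice: *Pmch* (melanin-concentrating hormone) ran from 11.49 to 12.83 on the log2 scale of the arrays, *Oxt* (oxytocin) from 7.41 to 10.64 and *Hcrt* (hypocretin) from 7.72 to 11.04. Markers of neighbouring regions were also measured in every mouse and varied widely. *Slc6a3*, the dopamine transporter, ran from 6.65 to 11.72, and *Gpr151*, a receptor of habenular neurons, ran from 5.28 to 8.85. The median log2 value per array lay between 6.17 and 6.42. Precision is set by the number of arrays, since arrays carry no count of reads. In RNA of a whole tissue block, fewer cells of a type and less RNA per cell cannot be told apart, and p-values measure the spread between mice.

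*Chrna5*, *Chrna3* and *Chrnb4* stand next to each other on chromosome 9, and *Chrnb3* and *Chrna6* stand next to each other on chromosome 8. The other 3 subunits lie apart, *Chrna4* on chromosome 2, *Chrna7* on chromosome 7 and *Chrnb2* on chromosome 3. The promoters of the chromosome 9 cluster are shown because its members did not vary together: *Chrna3* and *Chrnb4* moved with each other, and their neighbour *Chrna5* moved with the chromosome 8 pair. They are RefSeq windows of build GRCm38.p6 from 250 bases before to 50 bases after a transcription start, written 5′ to 3′ on the strand of the gene, at chr9:54981238-54981537 (plus strand) for *Chrna5*, chr9:55026513-55026812 (minus strand) for *Chrna3* and chr9:55048495-55048794 (minus strand) for *Chrnb4*. Capitals mark the GC box GGGCGG and the nuclear receptor core AGGTCA, searched on both strands.
Chrna5: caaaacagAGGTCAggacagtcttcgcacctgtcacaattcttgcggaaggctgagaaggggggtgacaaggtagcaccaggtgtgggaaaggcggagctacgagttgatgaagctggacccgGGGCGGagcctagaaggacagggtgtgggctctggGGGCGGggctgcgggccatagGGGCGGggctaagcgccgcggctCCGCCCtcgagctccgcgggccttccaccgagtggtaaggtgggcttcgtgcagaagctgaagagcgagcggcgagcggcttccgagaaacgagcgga
Chrna3: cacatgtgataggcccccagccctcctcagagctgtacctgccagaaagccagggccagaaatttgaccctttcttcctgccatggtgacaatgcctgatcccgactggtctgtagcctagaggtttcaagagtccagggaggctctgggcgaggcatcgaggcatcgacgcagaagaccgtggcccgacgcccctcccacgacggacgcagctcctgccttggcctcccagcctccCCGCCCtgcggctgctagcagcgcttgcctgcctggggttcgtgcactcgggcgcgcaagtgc
Chrnb4: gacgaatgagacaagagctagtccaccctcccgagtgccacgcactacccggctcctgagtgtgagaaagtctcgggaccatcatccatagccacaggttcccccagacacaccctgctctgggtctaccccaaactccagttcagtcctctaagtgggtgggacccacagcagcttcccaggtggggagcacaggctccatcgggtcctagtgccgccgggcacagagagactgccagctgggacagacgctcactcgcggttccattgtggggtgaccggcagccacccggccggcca

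The *Chrna5* window held 4 GC boxes and 1 nuclear receptor core, and the *Chrna3* window held 1 GC box. Of 32851 promoter windows in the table, 35.7% held a GC box and 16.3% the receptor core. The *Chrnb4* window held neither. None of the 3 held the homeobox core TAATTA, the bicoid-type core TAATCC or the clock E-box CACGTG, which occurred in 5.29%, 7.06% and 7.15% of all windows. Their GC content was alike, 65% in *Chrna5*, 64.3% in *Chrna3* and 63% in *Chrnb4*, against a median of 52.7% over all windows. RefSeq gives *Chrna5* another start upstream, at chr9:54980630-54980929, whose window had 41.3% GC and none of the 5 motifs.

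Between mice of the same group, 5 subunits varied far more than most genes did. The log2 SD within the 4 groups was 0.97 for *Chrna6*, 0.67 for *Chrna5*, 0.65 for *Chrnb3*, 0.61 for *Chrna3* and 0.42 for *Chrnb4*. The median over the probesets with 1 gene symbol was 0.17. The values of the 5 subunits stood at the percentiles 99.9, 99.6, 99.6, 99.5 and 98.1 of those probesets. *Chrna4* (SD 0.24), *Chrna7* (0.21) and *Chrnb2* (0.18) varied less, at the percentiles 82.4, 70.7 and 53.6. The more variable subunits were those known from particular nuclei, and the steadier ones those known across the brain.

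**Figure D1:**
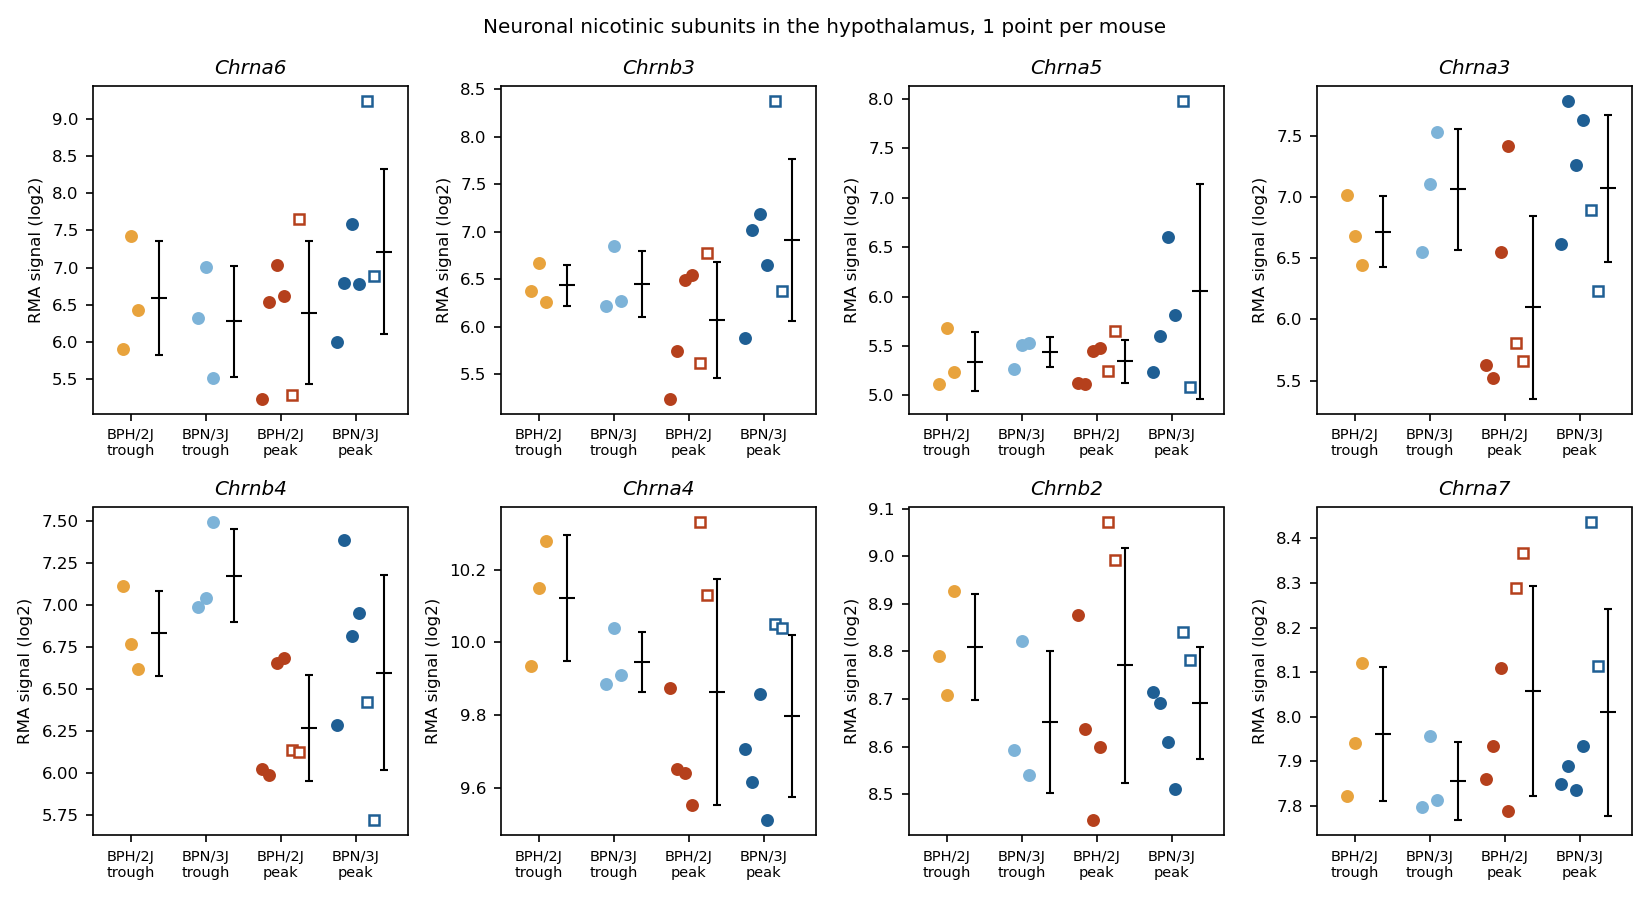
RMA signal (log2) of the 8 subunits by group, with 1 point per mouse and the group mean ± SD at the right of each group. Open squares are the higher-numbered ‘peak’ mice (BPH/2J 8 and 9, BPN/3J 10 and 11). BPN/3J ‘peak’ mouse 10 is the highest of all 18 mice for *Chrna6*, *Chrnb3*, *Chrna5* and *Chrna7*.

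*Chrna6*, *Chrnb3* and *Chrna5* rose and fell from mouse to mouse with the RNA of dopamine neuron markers. A dopamine score was formed for each mouse as the mean, over 11 markers of midbrain dopamine neurons, of the log2 value minus the marker's mean over all mice. The markers were *Th* (tyrosine hydroxylase), *Slc6a3*, *Slc18a2* (the vesicular monoamine transporter), *Ddc* (aromatic amino acid decarboxylase), *Pitx3*, *En1*, *Nr4a2*, *Aldh1a1*, *Lmx1b*, *Ret* and *Gucy2c*, and no subunit is among them. Each subunit's deviations from its 4 group means were then compared with those of the score, so that strain and time differences stayed out of the relation. The p-values are two-sided, from permutations that shuffled mice within groups, and were adjusted over 40 relations (8 subunits with 5 scores). A subunit is said to follow a score where the adjusted p was under 0.05 and r was above 0 over all mice and within both ‘peak’ groups. This relation had been seen in these arrays before the rule was written.

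*Chrna6*, a ligand-binding subunit found on dopamine terminals, read 5.91, 7.42 and 6.43 in the 3 BPH/2J ‘trough’ mice and 6.32, 7.003 and 5.52 in the 3 BPN/3J ‘trough’ mice. At ‘peak’ BP its lowest, median and highest values were 5.24, 6.58 and 7.66 in BPH/2J and 6.00, 6.84 and 9.24 in BPN/3J. All 4 groups overlapped, and the mice with a high value were those with a high dopamine score: the highest of the BPH/2J ‘peak’ mice, mouse 9 at 7.66, had the highest score of its group (0.51), and BPN/3J mouse 10, at 9.24, had a score of 1.38. Over the 18 mice r was 0.951 (permutation p = 1e-05, the smallest the draws can give, adjusted p = 0.000133) and Spearman's rho was 0.936 (permutation p = 1e-05, adjusted p = 0.0004). The r was 0.896 without BPN/3J ‘peak’ mouse 10 and BPH/2J ‘peak’ mouse 9, whose scores deviated most. Within the ‘peak’ groups r was 0.929 in BPH/2J (exact permutation p = 0.00139) and 0.975 in BPN/3J (exact permutation p = 0.00278). The score took up 90.5% of the variance of *Chrna6* within groups, and the subunit moved by 1.77 log2 units for each unit of the score.

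*Chrnb3*, an accessory subunit found with *Chrna6*, read 6.38, 6.67 and 6.26 in the BPH/2J ‘trough’ mice and 6.22, 6.85 and 6.27 in the BPN/3J ‘trough’ mice. At ‘peak’ BP it ran from 5.24 over a median of 6.12 to 6.77 in BPH/2J, and from 5.88 over 6.83 to 8.38 in BPN/3J. The groups overlapped, but 3 of 6 BPH/2J ‘peak’ mice lay below every BPN/3J ‘peak’ mouse and 3 of 6 BPN/3J mice lay above every BPH/2J mouse. Its r with the dopamine score was 0.847 (permutation p = 0.00012, adjusted p = 0.0012), and rho was 0.717 (permutation p = 0.0021, adjusted p = 0.0194). The r fell to 0.653 without the same pair of mice, and with the lower-numbered ‘peak’ mice only (BPH/2J 4 to 7, BPN/3J 5 to 8) it was 0.689 and no longer passed (adjusted p = 0.0758). It was 0.894 within the BPH/2J ‘peak’ group (exact permutation p = 0.00972) and 0.881 within the BPN/3J group (exact permutation p = 0.0264).

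*Chrna5* read 5.11, 5.68 and 5.24 in the BPH/2J ‘trough’ mice and 5.27, 5.51 and 5.54 in the BPN/3J ‘trough’ mice. At ‘peak’ BP its lowest, median and highest values were 5.12, 5.35 and 5.65 in BPH/2J, and 5.08, 5.71 and 7.98 in BPN/3J. The signal was low: its group means lay between 5.34 and 6.05, below the lowest array median of 6.17. Its mean over all mice stood at the percentile 27.9 of the probesets with 1 gene symbol. Most mice lay close together, and BPN/3J ‘peak’ mice 7 (6.60) and 10 (7.98) stood above all others; their dopamine scores, 0.52 and 1.38, were the highest of the 18. Its r with the score was 0.8 (permutation p = 0.00196, adjusted p = 0.0157), and rho was 0.732 (permutation p = 0.00242, adjusted p = 0.0194). Within the ‘peak’ groups r was 0.894 in BPH/2J (exact permutation p = 0.0111) and 0.917 in BPN/3J (exact permutation p = 0.0222). The call rested on single mice: r was 0.589 (adjusted p = 0.0774) without BPN/3J mouse 10, 0.792 (adjusted p = 0.0565) without BPN/3J mouse 7, and 0.558 without BPN/3J mouse 10 and BPH/2J mouse 9 together. With the lower-numbered ‘peak’ mice only it was 0.735 (adjusted p = 0.0758).

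The relation was carried by most of the dopamine markers and not by the catecholamine enzymes alone. With *Chrna6*, all 11 markers had r above 0 and 8 had r of at least 0.7, with a median of 0.85. The highest was *Slc18a2* at 0.975 and the lowest *Pitx3* at 0.266. *Chrnb3* had r of at least 0.7 with 9 markers (median 0.77) and *Chrna5* with 7 (median 0.771), and *Pitx3* was the lowest for both. *Lmx1b*, also a transcription factor, was next lowest for each, at 0.463 with *Chrna6*, 0.371 with *Chrnb3* and 0.388 with *Chrna5*. Where the cells that carried the dopamine markers lay was not tested. Across the 21640 probesets with 1 symbol, 0.393% had an r with the score at least as high as *Chrna5*, 0.166% at least as high as *Chrnb3* and 0.0139% at least as high as *Chrna6*.

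*Chrna3* and *Chrnb4* did not follow the dopamine score but followed a score of medial habenula markers. Their r with the dopamine score was -0.126 (permutation p = 0.65, adjusted p = 0.839) and -0.188 (permutation p = 0.58, adjusted p = 0.839). A habenula score was formed in the same way from *Gng8*, *Gpr151*, *Pou4f1*, *Tac2*, *Lrrc55*, *Nwd2* and *Htr5b*. The subunits that followed the dopamine score did not follow it, with r of -0.0359 for *Chrna6*, 0.0905 for *Chrna5* and 0.232 for *Chrnb3*. The separation was least clear for *Chrnb3*: over 23 alternative settings and subsets of mice its habenula r ran from 0.118 to 0.737, and 0 passed.

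*Chrna3*, the ligand-binding subunit of ganglionic and habenular receptors, read 7.02, 6.68 and 6.44 in the BPH/2J ‘trough’ mice and 6.55, 7.11 and 7.53 in the BPN/3J ‘trough’ mice. At ‘peak’ BP it ran from 5.53 over a median of 5.74 to 7.42 in BPH/2J and from 6.23 over 7.08 to 7.78 in BPN/3J. Of the 6 BPH/2J ‘peak’ mice, 4 lay below every BPN/3J ‘peak’ mouse, and the exceptions were mouse 6 (6.55) and mouse 7 (7.42), which also had the highest habenula scores of that group (0.06 and 0.61, against -0.36 or lower in the other 4). Its r with the habenula score was 0.933 (permutation p = 1e-05, adjusted p = 0.000133), and rho was 0.862 (permutation p = 0.00019, adjusted p = 0.0038). Without BPN/3J mouse 11 and BPH/2J mouse 7, whose habenula scores deviated most, r was 0.905. Within the ‘peak’ groups r was 0.96 in BPH/2J (exact permutation p = 0.0306) and 0.971 in BPN/3J (exact permutation p = 0.00278).

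*Chrnb4*, its usual partner, read 7.11, 6.77 and 6.62 in the BPH/2J ‘trough’ mice and 6.99, 7.04 and 7.49 in the BPN/3J ‘trough’ mice. At ‘peak’ BP its lowest, median and highest values were 5.99, 6.13 and 6.69 in BPH/2J, and 5.72, 6.62 and 7.39 in BPN/3J. The strains overlapped at both times, and the lowest of all 18 mice, BPN/3J ‘peak’ mouse 11, had the lowest habenula score (-0.92). Its r with the habenula score was 0.943 (permutation p = 1e-05, adjusted p = 0.000133), rho was 0.808 (permutation p = 0.00145, adjusted p = 0.0193), and r without the same pair of mice was 0.928. Within the ‘peak’ groups r was 0.878 in BPH/2J (exact permutation p = 0.0514) and 0.987 in BPN/3J (exact permutation p = 0.00278). All 7 habenula markers had r above 0 with both subunits, from 0.698 to 0.963 with *Chrna3* and from 0.705 to 0.934 with *Chrnb4*. The habenula score took up 87% of the variance of *Chrna3* within groups and 88.9% of that of *Chrnb4*, where the dopamine score took up 1.6% and 3.55%. An r as high as that of *Chrna3* was reached by 0.0416% of the probesets with 1 symbol.

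**Figure D2:**
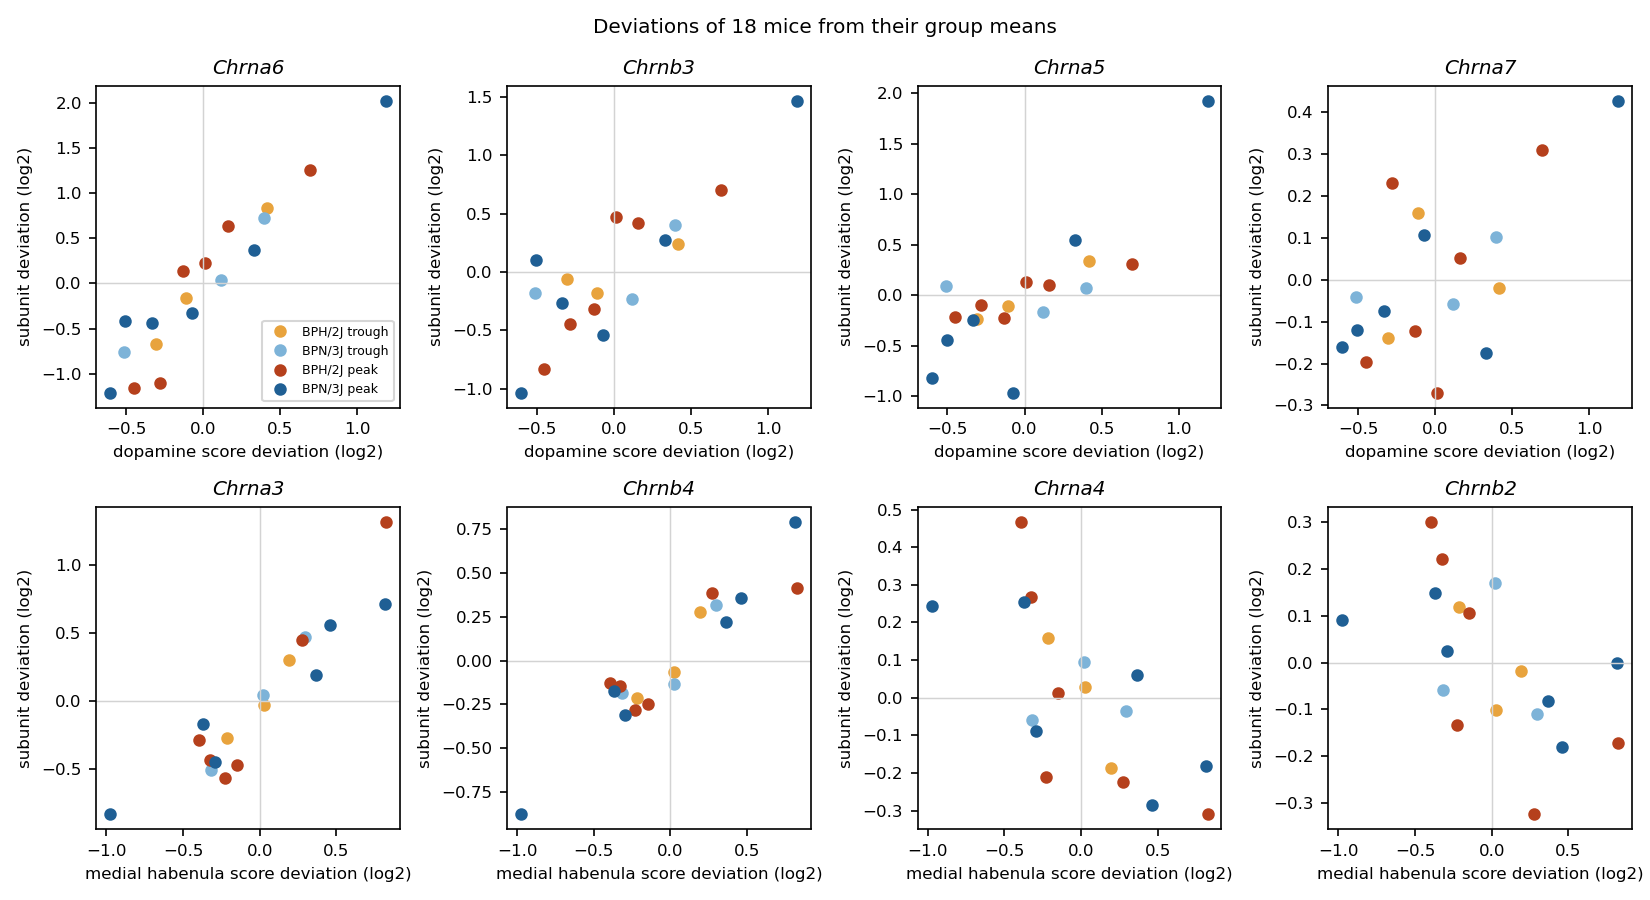
Deviation of a subunit from its group mean (log2, vertical) against that of the dopamine score (top row) or the medial habenula score (bottom row), 1 point per mouse, coloured by group. *Chrna6* (r 0.951), *Chrnb3* (0.847) and *Chrna5* (0.8) rise with the dopamine score, and *Chrna3* (0.933) and *Chrnb4* (0.943) rise with the habenula score. *Chrna4* declines with the habenula score (-0.689), a call that held in 11 of 23 alternatives. *Chrnb2* has an r of -0.568 that did not pass, though it did in 4 of 23 alternatives. BPN/3J ‘peak’ mouse 10 is the point at the far right of the top row.

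*Chrna4*, *Chrnb2* and *Chrna7* followed neither score. With the dopamine score r was 0.395 for *Chrna4* (permutation p = 0.133, adjusted p = 0.332), 0.186 for *Chrnb2* (permutation p = 0.454, adjusted p = 0.789) and 0.631 for *Chrna7* (permutation p = 0.0163, adjusted p = 0.065). The r of *Chrna7* was 0.141 without BPN/3J mouse 10 and BPH/2J mouse 9, so its relation rested on those mice. With the habenula score all 3 had r below 0, and that of *Chrna4*, -0.689, passed (permutation p = 0.00615, adjusted p = 0.0351). This call held in 11 of 23 alternatives. With the lower-numbered ‘peak’ mice only, the r was -0.467 (permutation test, adjusted p = 0.39). With deviations taken within the lower- and the higher-numbered ‘peak’ mice, it was -0.426 (permutation test, adjusted p = 0.3). For *Chrnb2* the habenula r was -0.568 (permutation p = 0.016, adjusted p = 0.065) and rho was -0.666 (permutation p = 0.00652, adjusted p = 0.038). That relation passed in 4 of 23 alternatives. None of the 8 subunits followed the score of the thalamus, of the hypothalamus or of neurons in general. *Chrna5* had an r below 0 with the thalamus score, -0.859 (permutation p = 0.00484, adjusted p = 0.0323), which rested on 2 mice and was -0.345 without BPN/3J ‘peak’ mice 10 and 11. Its rho was -0.56 (permutation p = 0.04, adjusted p = 0.146). The thalamus r of *Chrnb3* was -0.727 (permutation p = 0.0126, adjusted p = 0.0632) and that of *Chrna6* -0.653 (permutation p = 0.0243, adjusted p = 0.0885). Neither passed, and without those mice they were -0.388 and -0.361. The same step took the thalamus r of *Chrnb2* from 0.164 to 0.783, of *Chrna4* from 0.0224 to 0.541 and of *Chrna7* from -0.37 to 0.261. That of *Chrnb2* was 0.814 within the BPH/2J ‘peak’ group (exact permutation p = 0.0472) and -0.376 within the BPN/3J group (exact permutation p = 0.483).

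The steadier subunits were higher in some of the ‘peak’ mice, in an order shared by many probesets of the array. *Chrna4* read 10.33 and 10.13 in BPH/2J mice 8 and 9 and from 9.55 to 9.88 in BPH/2J mice 4 to 7. It read 10.05 and 10.04 in BPN/3J mice 10 and 11 and from 9.51 to 9.86 in BPN/3J mice 5 to 8. The higher-numbered mice lay above the lower-numbered mice in both strains, without overlap. *Chrna7* read 8.29 and 8.37 in BPH/2J mice 8 and 9 against 7.79 to 8.11 in the others, and 8.44 and 8.12 in BPN/3J mice 10 and 11 against 7.84 to 7.94. *Chrnb2* showed the same order, with 9.07 and 8.99 against 8.45 to 8.88 in BPH/2J and 8.84 and 8.78 against 8.51 to 8.72 in BPN/3J. These 3 of 8 subunits had the higher-numbered mice above all lower-numbered ones in both strains, as 7.39% of all probesets did. With a term for these mice in the fit, the probesets called over time went from 3005 to 6742 in BPH/2J and from 8803 to 13666 in BPN/3J. The array weights of the 4 mice were 0.472, 0.401, 0.417 and 0.299, against 0.409 to 9.44 in the other 14. The labels give no batch, so what sets the higher numbers apart was not tested. At ‘trough’ BP *Chrna4* read 9.94, 10.15 and 10.28 in BPH/2J and 9.89, 10.04 and 9.91 in BPN/3J. *Chrna7* read 7.82, 7.94 and 8.12 against 7.80, 7.96 and 7.81 there, and *Chrnb2* read 8.79, 8.71 and 8.93 against 8.59, 8.82 and 8.54.

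The highest values between subunits lay within the same sets. Between deviations from group means over the 18 mice, r was 0.903 for *Chrna6* with *Chrnb3*, 0.842 for *Chrna5* with *Chrnb3* and 0.763 for *Chrna5* with *Chrna6*. It was 0.889 for *Chrna3* with *Chrnb4*, 0.841 for *Chrna4* with *Chrnb2*, 0.763 for *Chrna4* with *Chrna7* and 0.593 for *Chrna7* with *Chrnb2*. *Chrna7* also had r of 0.537 with *Chrna6*, 0.497 with *Chrnb3* and 0.489 with *Chrna5*. Some r between sets were below 0: *Chrna3* had -0.594 with *Chrna4*, -0.532 with *Chrnb2* and -0.389 with *Chrna7*. *Chrnb4* had -0.583, -0.499 and -0.366 with the same subunits. *Chrna4*, *Chrnb2* and *Chrna7* are also the subunits that shared the order of the higher-numbered ‘peak’ mice, and its part in these r was not tested. On chromosome 9, *Chrna5* had r of 0.162 with its neighbour *Chrna3* and 0.156 with *Chrnb4*. These are descriptions over values that share their arrays. *Chrna5* and *Chrna3* overlap at their ends in RefSeq on opposite strands; the array's probes were not mapped here.

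**Figure D3:**
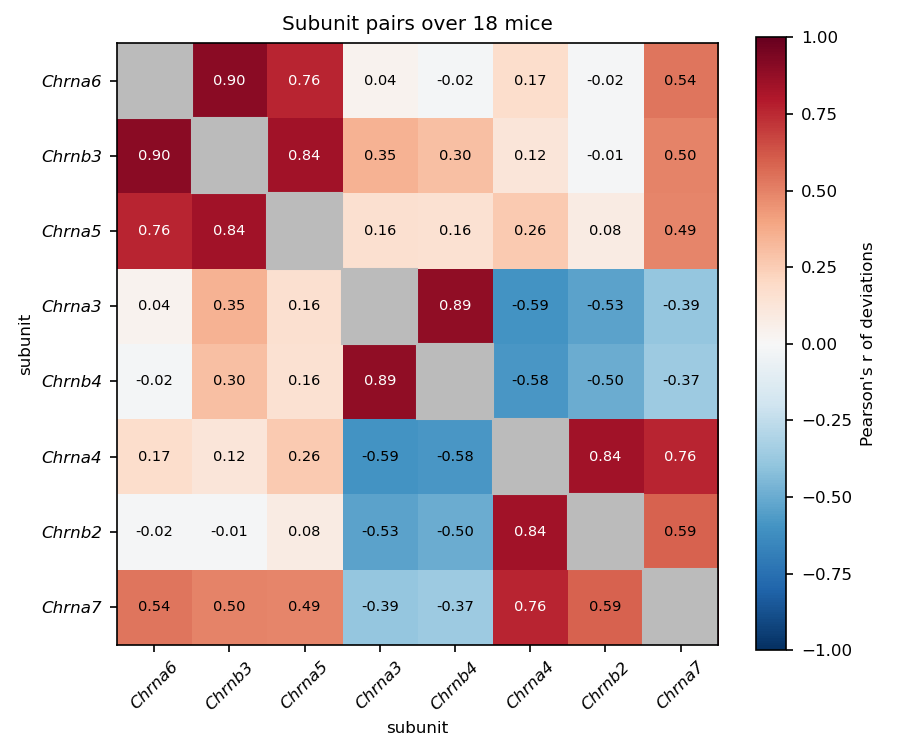
Pearson's r between the deviations of 2 subunits from their group means over 18 mice, from -1 (blue) to 1 (red), with both axes listing the 8 subunits. *Chrna6*, *Chrnb3* and *Chrna5* form a red block (0.763 to 0.903), *Chrna3* and *Chrnb4* another (0.889), and *Chrna4*, *Chrnb2* and *Chrna7* the last (0.593 to 0.841).

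The genes most like each subunit, by r of deviations from group means over the 18 mice, included markers of the same regions. For *Chrna6* they were *Slc18a2* (0.975), *Slc10a4*, a transporter-like protein of vesicles in monoaminergic and cholinergic neurons (0.945), and *Slc6a3* (0.94). For *Chrnb3* they were *En2*, a homeobox gene of the midbrain-hindbrain region (0.914), *Chrna6* (0.903) and *Cnp*, a myelin enzyme (0.899). *En2* also led for *Chrna5* (0.906), followed by *Agpat4* (0.898) and *Shisa4* (0.892). For *Chrna3* they were *Nwd2* (0.963), the kinase *Prkcq* (0.941) and *Htr5b*, a serotonin receptor (0.91). For *Chrnb4* they were the homeobox gene *Otx2* (0.948), the chemokine *Cxcl11* (0.942) and *Htr5b* (0.934). *Nwd2* and *Htr5b* are in the habenula list, and *Slc18a2* and *Slc6a3* in the dopamine list. The steadier subunits had other companions, *Gpr162* (0.966), *Polr2l* (0.954) and *Icmt* (0.952) for *Chrna4*, *Mrps24* (0.91), *Lrtm2* (0.892) and *Coro2a* (0.89) for *Chrnb2*, and *Bop1* (0.939), *Tmem9b* (0.925) and *Carhsp1* (0.922) for *Chrna7*.

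At ‘peak’ BP, when the strains differ most in blood pressure, none of the 8 subunits passed the test between BPH/2J and BPN/3J, and 1.33% of all probesets did. All 4 groups entered a single limma model, with Benjamini-Hochberg adjustment over the 34760 probesets and calls at an adjusted p under 0.05. The median difference of the 8 was -0.52 on the log2 scale, against -0.01 over all probesets. The means of 5 subunits were lower in BPH/2J. No subunit separated the strains without overlap, as 1.57% of all probesets did. *Chrna3* differed by -0.97 on the log2 scale, a mean 1.96-fold lower (SE 0.32, 95% interval of the difference -1.65 to -0.29, limma adjusted p = 0.228). *Chrnb3* differed by -0.84 (SE 0.34, interval -1.57 to -0.12, limma adjusted p = 0.384). At an unadjusted p under 0.05, these were the members reached, 2 of 8, where 9.93% of all probesets were. *Chrna6* differed by -0.82 (SE 0.51, interval -1.89 to 0.25, adjusted p = 0.664), *Chrna5* by -0.71 (SE 0.36, interval -1.46 to 0.04, adjusted p = 0.544) and *Chrnb4* by -0.33 (SE 0.23, interval -0.80 to 0.15, adjusted p = 0.712). These differences leaned on single mice. Without BPN/3J ‘peak’ mouse 10 the difference was -0.42 for *Chrna6* (limma adjusted p = 0.774), -0.32 for *Chrna5* (limma adjusted p = 0.594) and -0.55 for *Chrnb3* (limma adjusted p = 0.451). That of *Chrnb4* ran from -0.17 without BPN/3J ‘peak’ mouse 6 to -0.50 without mouse 11. The intervals of the steadier subunits were narrow. They ran from -0.22 to 0.35 for *Chrna4*, from -0.20 to 0.30 for *Chrna7* and from -0.14 to 0.30 for *Chrnb2*, so a strain difference of 1.5-fold lay outside each.

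At ‘peak’ BP the mean dopamine and habenula scores were lower in BPH/2J, with wide overlap. The dopamine score averaged -0.18 in BPH/2J (from -0.63 to 0.51) and 0.19 in BPN/3J (from -0.41 to 1.38). Without BPN/3J mouse 10 the BPN/3J mean was -0.04, and the gap between the strains went from -0.38 to -0.14. Over all mice, 9 of its 11 markers had a lower mean in BPH/2J, with 0 past the test. The habenula score averaged -0.21 (from -0.61 to 0.61) and 0.06 (from -0.92 to 0.87), with 6 of 7 markers lower and 0 past the test. *Slc6a3* itself differed by -1.21 (SE 0.74, limma adjusted p = 0.657) and *Th* by -0.61 (SE 0.48, limma adjusted p = 0.767). *Aldh1a1*, also in the dopamine score, went the other way, by 0.84 (SE 0.30, limma adjusted p = 0.278). Its means at ‘trough’ BP were 10.99 in BPH/2J and 9.23 in BPN/3J. The hypothalamus score averaged 0.32 in BPH/2J and -0.22 in BPN/3J, where *Gal* (galanin) was higher in BPH/2J (0.88, SE 0.20, limma adjusted p = 0.0322), and the thalamus marker *Tnnt1* was lower (-0.90, SE 0.10, limma adjusted p = 5.94e-05).

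With the dopamine score as a covariate in the fit, the ‘peak’ difference of *Chrna6* was -0.15 (SE 0.18, limma adjusted p = 0.763) in place of -0.82, that of *Chrnb3* was -0.45 (SE 0.20) in place of -0.84 and that of *Chrna5* was -0.32 (SE 0.24) in place of -0.71. The dopamine score left *Chrna3* at -1.03 (SE 0.35, limma adjusted p = 0.21). With the habenula score as a covariate, an alternative added after seeing the data, *Chrnb4* was at -0.12 (SE 0.09) in place of -0.33. The difference of *Chrna3* was -0.67 with the smaller SE of 0.13, and it passed (limma adjusted p = 0.0109). With both scores *Chrnb3* was at -0.25 (SE 0.13), *Chrna5* at -0.19 (SE 0.23) and *Chrna6* at -0.03 (SE 0.16). *Chrna3* was then at -0.62 (SE 0.14, limma adjusted p = 0.0354). Without covariates, 1 mouse decided the call. Without BPH/2J ‘peak’ mouse 7, the difference of *Chrna3* was -1.23 (SE 0.27, limma adjusted p = 0.0362). Over all alternatives the adjusted p of *Chrna3* ran from 0.0109 to 0.454.

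**Figure D4:**
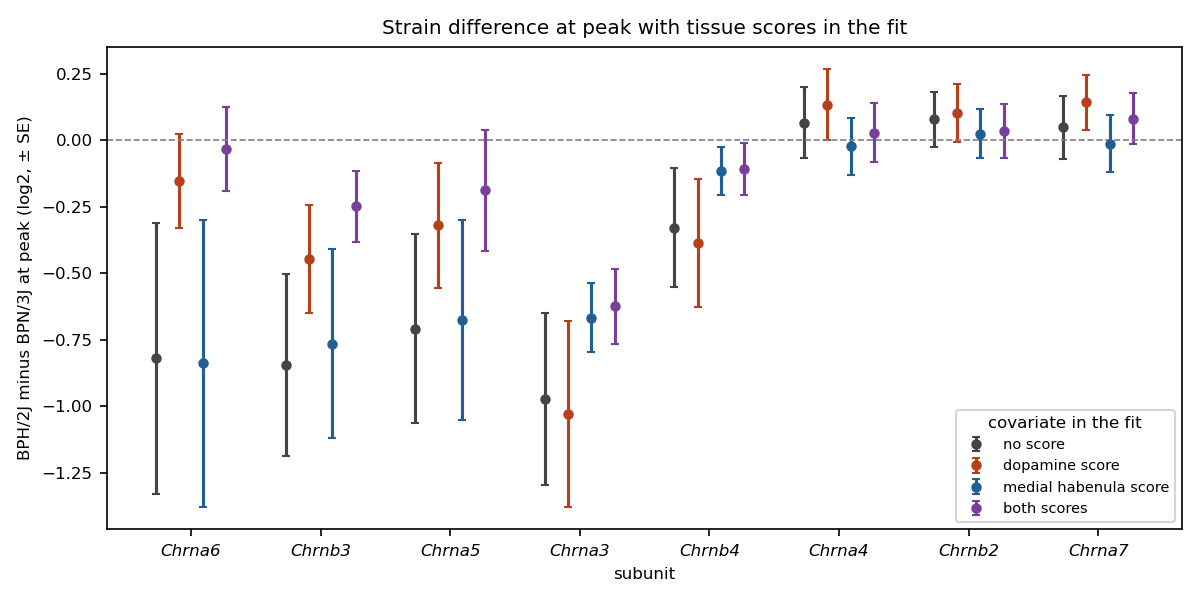
Strain difference at ‘peak’ BP (BPH/2J minus BPN/3J, log2, ± SE) of the 8 subunits from fits with no score, the dopamine score, the medial habenula score or both as covariates. *Chrna6* goes from -0.82 to -0.15 with the dopamine score, and *Chrna3* goes from -0.97 to -0.67 with the habenula score while its SE goes from 0.32 to 0.13.

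At ‘trough’ BP, 0 of 8 subunits passed in limma, 0.529% of all probesets passed, and 0 of 8 had an unadjusted p under 0.05, as 10.4% of probesets did. The strains overlapped in all 8, where 19.9% of probesets did not overlap, and the median difference was 0.05. The log2 difference was 0.31 for *Chrna6* (SE 0.72, interval -1.21 to 1.82, adjusted p = 0.901) and -0.35 for *Chrna3* (SE 0.46, interval -1.31 to 0.62, adjusted p = 0.807). It was -0.34 for *Chrnb4* (SE 0.32, interval -1.01 to 0.33, adjusted p = 0.721). The other 5 lay between -0.10 and 0.18. With 3 mice per strain the intervals of the variable subunits were wide, and small differences were not detectable.

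The quantity *d* is the strain difference at ‘peak’ minus that at ‘trough’ BP on the log2 scale, and the *aFD* is the fold it stands for, with its sign. By limma 0 of 8 subunits and 0.0% of all probesets passed for *d*, and 0 of 8 had an unadjusted p under 0.05, as 8.31% of probesets did. *Chrna6* had an *aFD* of -2.18 (*d* -1.13, SE 0.88, interval -2.98 to 0.73), *Chrnb3* of -1.78 (*d* -0.83, SE 0.59, interval -2.08 to 0.42), *Chrna3* of -1.54 (*d* -0.62, SE 0.56) and *Chrna5* of -1.53 (*d* -0.61, SE 0.62). These 4 of 8 reached 1.5 in size, where 5.93% of all probesets did. *Chrna3*, *Chrna6* and *Chrnb3* are among the genes the study listed by *aFD* from these same arrays, so their size is not independent evidence of its direction. With group medians in place of means, *Chrna6* had -1.29 and *Chrna5* -1.06, below 1.5 in size, while *Chrnb3* had -1.76 and *Chrna3* -1.89. With the dopamine score in the fit, *d* of *Chrna6* was -0.51 (SE 0.29). Array weights gave -0.53, and over the mice whose numbers both strains share at a time, with or without the replicate block, it was 0.07, with the direction turned. Without BPN/3J ‘peak’ mouse 10, *d* was -0.72 for *Chrna6*, -0.54 for *Chrnb3* and -0.23 for *Chrna5*. Without BPH/2J ‘trough’ mouse 2 that of *Chrna6* was -0.71, and without BPN/3J ‘trough’ mouse 1 that of *Chrna3* was -0.37. The other 4 subunits had *d* between -0.11 and 0.01.

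**Figure D5:**
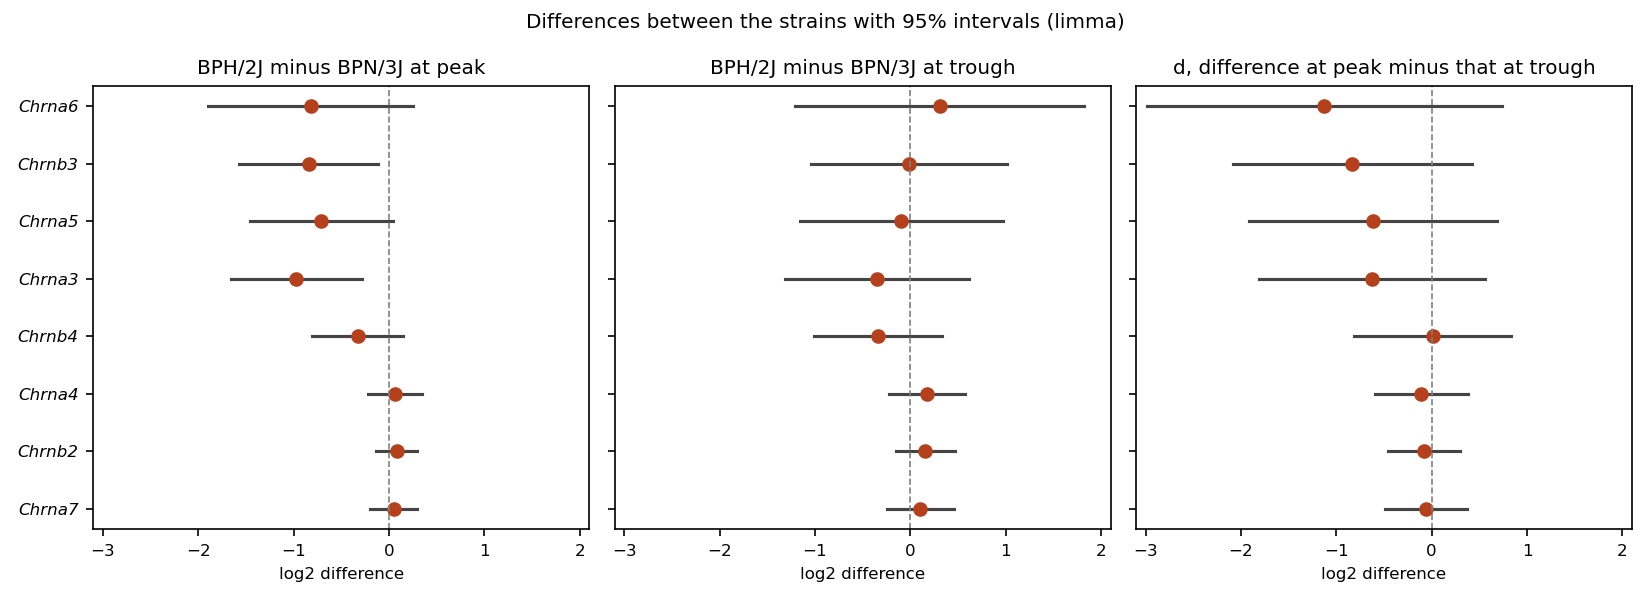
Log2 difference BPH/2J minus BPN/3J at ‘peak’ and at ‘trough’ BP, and *d*, for the 8 subunits, with 95% intervals from limma and a dashed line at 0. At ‘peak’ BP the intervals of *Chrna3* (-1.65 to -0.29) and *Chrnb3* (-1.57 to -0.12) exclude 0, and at ‘trough’ BP and for *d* all 8 include it.

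Between ‘peak’ and ‘trough’ BP, 0 of 8 subunits passed in limma in either strain, where 8.64% of all probesets passed in BPH/2J and 25.3% in BPN/3J, and 0 of 8 had an unadjusted p under 0.05, as 23.1% and 39.9% of probesets did. The times overlapped in all 8 subunits, where 17.7% of probesets in BPH/2J and 20.8% in BPN/3J did not overlap. *Chrnb4* came nearest, with a lower mean at ‘peak’ BP in both strains, at -0.56 in BPH/2J (SE 0.28, interval -1.15 to 0.02, limma adjusted p = 0.233) and -0.58 in BPN/3J (SE 0.28, interval -1.16 to 0.01, limma adjusted p = 0.129). With the habenula score in the fit it passed in both, at -0.36 (SE 0.11, limma adjusted p = 0.0368) and -0.41 (SE 0.11, limma adjusted p = 0.00945). That fit called 13.2% of all probesets in BPH/2J and 32.7% in BPN/3J. *Chrna4* differed by -0.26 in BPH/2J (SE 0.16, limma adjusted p = 0.373) and by -0.15 in BPN/3J (SE 0.16, limma adjusted p = 0.519). With a term for the higher-numbered mice, added after seeing the data, it passed at -0.41 (SE 0.10, limma adjusted p = 0.0102) and -0.30 (SE 0.10, limma adjusted p = 0.0286). With this term 19.4% and 39.3% of all probesets passed. *Chrna6* differed by 0.93 in BPN/3J (SE 0.62, limma adjusted p = 0.273) and passed with the dopamine score in the fit (0.60, SE 0.21, limma adjusted p = 0.0388). There 31.5% of all probesets passed in BPN/3J. The remaining differences over time lay between -0.62 (*Chrna3* in BPH/2J) and 0.61 (*Chrna5* in BPN/3J). Both strains' ‘trough’ mice were younger than their ‘peak’ mice.

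Other genes of the cholinergic pathway passed the test over time. Of 29 measured genes, 0 passed between the strains at either time or for *d*. Over time 2 were higher and 0 lower at ‘peak’ BP in BPH/2J, and 4 were higher and 8 lower in BPN/3J, where 8.64% and 25.3% of all probesets passed. Over the 29, the median difference in BPH/2J was -0.07 against -0.02 for all probesets, and in BPN/3J it was -0.20 against -0.01. Among receptor assembly factors, *Tmem35a*, the chaperone known as NACHO that assembles *Chrna7* receptors, was higher at ‘peak’ BP by 0.56 in BPH/2J (SE 0.10, limma adjusted p = 0.00311) and by 0.57 in BPN/3J (SE 0.10, limma adjusted p = 0.00158). *Rer1*, a retention factor for unassembled muscle receptor subunits, was higher by 0.33 (SE 0.07, limma adjusted p = 0.009) and 0.32 (SE 0.07, limma adjusted p = 0.00569). *Vsnl1*, a calcium sensor that binds *Chrna4*, was higher in BPN/3J by 0.25 (SE 0.07, limma adjusted p = 0.0194).

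Of 8 other nicotinic subunits, 5 were lower at ‘peak’ BP in BPN/3J, where 4310 of all 34760 probesets were. *Chrna1*, *Chrne* and *Chrng*, subunits of the muscle receptor, differed by -0.49, -0.42 and -0.43, and *Chrna9* and *Chrna10*, of the cochlear receptor, by -0.58 and -0.63 (limma adjusted p from 0.00796 to 0.0284). Their group means lay between 4.76 and 6.00, below the lowest array median of 6.17. *Chat*, which makes acetylcholine, and *Slc18a3*, which loads it into vesicles, were lower in BPN/3J by -0.45 and -0.71 (limma adjusted p = 0.0361 and 0.0262), and read -0.40 and -0.70 in BPH/2J without passing (limma adjusted p = 0.109 and 0.0525). Of the muscarinic receptors, *Chrm4* was lower (-0.67, SE 0.15, limma adjusted p = 0.00655) and *Chrm3* higher (0.43, SE 0.12, limma adjusted p = 0.0194) in BPN/3J. A difference between the strains in these changes did not pass for any of them.

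Of the 41 regional and neuronal markers, 5 (12.2%) passed over time in BPH/2J, against 8.64% of all probesets, and 5 (12.2%) in BPN/3J, against 25.3%. In BPN/3J, *Pitx3* and *Lmx1b*, transcription factors of dopamine neurons, were lower at ‘peak’ BP by -0.48 each (limma adjusted p = 0.0444 and 0.0263), while *Th* and *Slc6a3* read 0.33 and 0.49 without passing. *Slitrk6*, of the thalamus, was higher in BPH/2J (0.62, limma adjusted p = 0.025) and in BPN/3J (0.77, limma adjusted p = 0.00404), and *Ramp3* was higher in BPH/2J (0.52, limma adjusted p = 0.0466). *Hcrt* and *Pmch*, of the lateral hypothalamus, were higher in BPH/2J by 1.29 and 0.86 (limma adjusted p = 0.0409 and 0.0104). Of the general neuronal markers, *Stmn2* was higher in BPH/2J (0.30, limma adjusted p = 0.0229), and *Rbfox3* and *Tubb3* were lower in BPN/3J (-0.30 and -0.35, limma adjusted p = 0.0406 and 0.00741). No habenula marker passed in any of the 5 comparisons.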

How the data were processed

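Hypothalamic RNA of 18 mice was hybridized to Mouse Gene 1.0 ST arrays, 1 mouse per array, and samples were grouped by their titles. RMA was run by the authors, whose deposited log2 values were used without further scaling. The version of RMA is not given in the sources used here. No value was missing. Genes were named from the platform annotation (21640 probesets with 1 symbol, 1321 with several, 11799 unnamed), and a gene with several probesets is given at the one with the highest mean.

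Tests used limma 3.58.1 in R 4.3.3 (14 residual and 2.94 prior degrees of freedom) with Benjamini-Hochberg adjustment over 34760 probesets. The fit was also run on simulated data with noise independent between probesets. That setting lacks the variation that probesets of these arrays share, so it cannot show how the tests behave under it. Correlations used 100000 permutations within groups, or all permutations within a ‘peak’ group, in Python 3.11.15 with scipy 1.17.1. Figures were drawn with matplotlib 3.10.9. *Agrp* had no probeset with 1 symbol and stayed out of the hypothalamus score. Named were all subunits, the listed pathway and regional genes that passed, *Th*, *Slc6a3*, *Slc18a2* and *Ddc*, and the 3 genes most like each subunit, with predicted genes passed over. The levels of *Gpr151*, *Oxt*, *Pmch* and *Hcrt* and the promoter motifs were chosen after values were seen. Members and lists were chosen with earlier results of these data known. The numbers in the titles were not used to pair mice in the main fit. Residual correlations of same-numbered mice ran from -0.30 to 0.19, over too few pairs to settle whether mice were paired. Alternatives were other normalizations, leaving out probesets below the 40th percentile, array weights, another prior, fits of 2 groups, a block for the mouse number, subsets of mice, scores as covariates and leaving out each array.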

Additional observations from a re-analysis of the deposited data

Results flagged for a closer look

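Within a group of 6 ‘peak’ mice, 2 scores had a mouse apart from the others, out of 26 groups tested, and chance flags about 1 in 20 groups. The thalamus score of BPN/3J ‘peak’ mouse 10 was -0.489, where the gap to the next mouse was 0.689 of the group's range; this is the mouse with the highest dopamine score (1.38) and the highest *Chrna6* (9.24), *Chrnb3* (8.38) and *Chrna5* (7.98). The hypothalamus score of BPH/2J ‘peak’ mouse 6 was -0.227, with a gap of 0.642 of the range. No value of a subunit itself stood apart by this measure.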

How the results depend on the processing

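No called result changed direction. The count of subunits past the threshold between the strains at ‘peak’ BP was 0 and became 1 (*Chrna3*) with the habenula score or both scores as covariates, and ranged from 0 to 1 with single arrays left out (1 without BPH/2J ‘peak’ mouse 7). Over time in BPH/2J it was 0 and became 1 with array weights, with the lower-numbered ‘peak’ mice only and with a term for the higher-numbered ones (*Chrna4*), and 1 with the habenula score or both scores (*Chrnb4*). In BPN/3J it became 1 with array weights or that term (*Chrna4*), 1 with the dopamine score (*Chrna6*), 1 with the habenula score (*Chrnb4*) and 2 with both, and ranged from 0 to 1 with arrays left out (*Chrnb4*, without ‘peak’ mouse 6). Of all probesets, the fits named for ‘peak’ BP called 1.71%, 1.63% and 1.12%, in the order given. Those named for BPH/2J over time called 26.6%, 19.2%, 19.4%, 13.2% and 13.1%. In BPN/3J they called 55.9%, 39.3%, 31.5%, 32.7%, 36.5% and 18.4%. Array weights gave BPN/3J ‘trough’ mouse 3 a weight of 9.44. The ‘trough’ and *d* counts stayed at 0 throughout.

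The 4 subunits with an *aFD* of 1.5 or more in size became 2 with group medians, 1 with array weights, 1 with the dopamine score, 0 with both scores, and 2 to 4 with single arrays left out. With the replicate block for the mouse number the count was 1, and 1 for the same mice without the block; the block brought 0 subunits past the threshold, and *Chrna3* was at -0.998 at ‘peak’ BP (adjusted p = 0.449). The 3 subunits that followed the dopamine score became 1 (*Chrna6*) with the lower-numbered ‘peak’ mice only, where *Chrnb3* had r of 0.689 and *Chrna5* of 0.735 (both adjusted p = 0.0758), and ranged from 2 to 4 with arrays left out. *Chrna7* was added without BPH/2J ‘peak’ mouse 8 (r 0.73, adjusted p = 0.0368). *Chrna3* and *Chrnb4* followed the habenula score in all 23 alternatives. Values of single subunits were counted once for each setting, so that a value can count many times. Under other settings 53 counts, of values that had not passed, changed sign and 538 stayed the same. With an array left out, 38 such counts changed sign and 954 stayed the same. The causes were not tested. Covariate fits, the term and the habenula alternatives were added after the data were seen, except the dopamine covariate. With 3 ‘trough’ mice per strain, intervals of the variable subunits spanned over 1 log2 unit.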
